A study of Mus musculus with 8 samples.

Results

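The 8 genes followed here, *Muc2*, *Fcgbp*, *Zg16*, *Tff3*, *Spink4*, *Agr2*, *Spdef* and *Atoh1*, encode the gel-forming mucin of the colon, the proteins released with it, and the proteins that fold it or specify the goblet cell. They were chosen by gene symbol, and all 8 were among the 15859 genes counted and the 14371 genes tested. RNA came from the distal colons of 8 male mice on a BALB/c x 129SvEV background, 2 for each combination of genotype and day. The WT and *Hsf1* null mice were littermates, all 10 weeks old, and were either untreated (day 0) or exposed to azoxymethane and dextran sulfate sodium and collected at day 15 (AOM–DSS). Azoxymethane (AOM), a colon carcinogen, was given once at 10 mg/kg to mice of 8 weeks. Dextran sulfate sodium (DSS), an irritant of the colonic lining, followed from day 7, at 1.5% in the water over 5 days. Day 15 is given by the titles and by the study's account of the model, in which mice were collected some days after DSS ended. *Hsf1* encodes heat shock factor 1, the main transcription factor of the heat shock response, and the null allele is not restricted to any cell type. The tissue was homogenized as it was, so each value comes from epithelium, muscle, stroma and blood cells together.

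Goblet cells are secretory cells of the intestinal epithelium that store MUC2 in granules and release it as the gel that keeps bacteria away from the colon surface. FCGBP, ZG16, CLCA1 and TFF3 are released with MUC2, AGR2 helps mucin to fold in the endoplasmic reticulum, and ATOH1 and SPDEF are transcription factors that commit progenitors to the secretory lineage and mature them into goblet cells. Loss of goblet cells and thinning of the mucus are well known features of colitis caused by DSS.

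Between 2553348 and 12440257 reads were counted per mouse, with the fewest in the second mouse of each untreated group. The targeted gene, *Hsf1*, was between 36.5 and 50.5 CPM (reads of a gene relative to all reads of its library, scaled by the TMM method) in the WT mice and between 9.09 and 14.0 CPM in the *Hsf1* null mice, in the direction of the labels. The 8 goblet cell genes had between 124 and 132041 reads per gene and mouse, the fewest for *Atoh1* and *Spdef*. The tissue label was borne out by epithelium markers, 12 of 12 of which were counted in every mouse, and the 8 genes alone took between 0.822% and 3.28% of all reads.

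At day 0, the 8 genes spanned a wide range of levels, compared here per kilobase of exon because their transcripts differ in length. *Zg16* and *Tff3* were the highest, at 5143 to 8766 and 4457 to 7568 CPM per kilobase over the 4 untreated mice, and these ranges overlap. *Spink4* came next, at 2541 to 4255 CPM per kilobase, below the range of *Tff3*. *Agr2*, at 677 to 1205 CPM per kilobase, and *Muc2*, at 450 to 782 CPM per kilobase, overlapped each other. *Fcgbp*, a very long transcript, was at 177 to 339 CPM per kilobase. The transcription factors were the lowest, with *Spdef* at 17.5 to 36.7 and *Atoh1* at 12.2 to 34.7 CPM per kilobase, and could not be ordered.

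Sequences before the start sites of 3 of the genes are shown, since *Hsf1* and *Atoh1* encode factors that bind DNA. RefSeq start sites on GRCm38.p6 were available for 5 of the 8 genes (*Muc2*, *Fcgbp*, *Agr2*, *Spdef* and *Atoh1*), and 3 of these are printed as the 250 bases before the start, 5′ to 3′ on the gene's own strand. *Fcgbp* (chr7:28070986-28071235, plus strand) is shown as a gene that passed the edgeR test as lower in treated WT than in treated *Hsf1* null mice, and *Muc2* (chr7:141690090-141690339, plus strand) and *Agr2* (chr12:35992675-35992924, plus strand) as genes that did not pass it. Capitals mark CAGCTG, an E-box of the kind that basic helix-loop-helix factors such as ATOH1 bind, and TATAAA, the letters of a TATA box wherever they stand. The RefSeq start of *Agr2* lies a few bases inside the gene as GENCODE draws it, so the last bases of its window are within that gene.
Fcgbp: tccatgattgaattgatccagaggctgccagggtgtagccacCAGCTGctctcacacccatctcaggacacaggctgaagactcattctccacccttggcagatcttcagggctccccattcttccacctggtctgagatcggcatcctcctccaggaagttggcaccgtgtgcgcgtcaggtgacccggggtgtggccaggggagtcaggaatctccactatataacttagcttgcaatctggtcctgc
Muc2: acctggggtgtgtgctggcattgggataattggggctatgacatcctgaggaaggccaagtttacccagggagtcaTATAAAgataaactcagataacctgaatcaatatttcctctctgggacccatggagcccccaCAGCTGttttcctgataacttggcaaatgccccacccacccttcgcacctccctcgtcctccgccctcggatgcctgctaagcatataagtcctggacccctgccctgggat
Agr2: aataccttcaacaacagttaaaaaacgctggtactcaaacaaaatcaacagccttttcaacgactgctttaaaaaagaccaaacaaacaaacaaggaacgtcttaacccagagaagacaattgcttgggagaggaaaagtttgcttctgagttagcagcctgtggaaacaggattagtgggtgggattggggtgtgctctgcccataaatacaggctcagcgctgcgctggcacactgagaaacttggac

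CAGCTG, which reads the same on both strands, began 208 bases before the start in *Fcgbp* and 112 bases before it in *Muc2*, and was in 2 of the 5 windows, against 13% of 32851 RefSeq promoter windows of the same length. TATAAA, searched on both strands like the other motifs, was in *Muc2* only, 174 bases before the start, and in 12.4% of all windows. The heat shock half-sites GAA and TTC, in either order and 2 bases apart, were in 0 of the 5 windows and in 12.8% of all windows, and CCGGAT, a core bound by SPDEF, was in 0 of 5 and in 4.94% of all. No match overlapped a match of another motif, and the counts describe the windows only.

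In WT mice, *Zg16* and *Tff3* were lower at day 15 than at day 0, by 6.07-fold and 3.47-fold, and in *Hsf1* null mice no gene of the 8 passed the test between the same days. At day 15, *Zg16* and *Fcgbp* were lower in WT than in *Hsf1* null mice, by 7.04-fold and 4.39-fold. *Agr2* and *Spdef*, a folding enzyme and a goblet cell transcription factor, did not pass any test, and their fitted changes over time were at most 1.51-fold in either genotype. In whole tissue, fewer goblet cells and less RNA per goblet cell cannot be told apart. The summed level of the 8 genes was between 7934 and 9810 CPM in the treated WT mice and between 17183 and 37582 CPM in the other 6 mice, with the highest sum in 1 treated *Hsf1* null mouse.

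**Figure D1:**
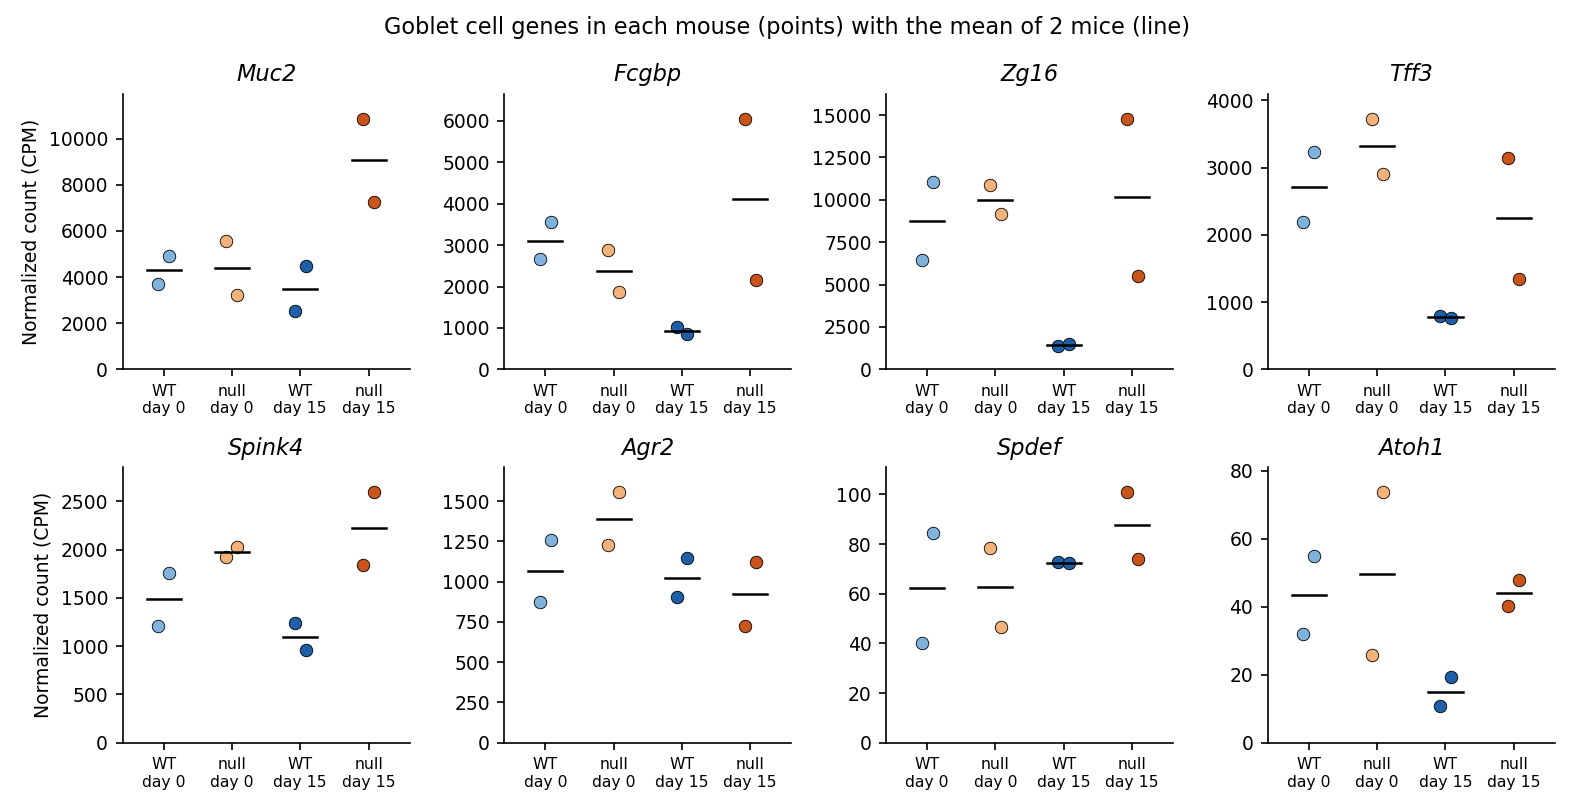
Normalized count in CPM (y axis, linear from 0) of each of the 8 genes in the 4 groups (x axis), with 1 point per mouse and a line at the mean of 2 mice. Both treated WT mice lie below the other 6 mice for *Fcgbp*, *Zg16*, *Tff3* and *Atoh1* and among them for *Agr2* and *Spdef*, and the 2 treated *Hsf1* null mice lie far apart for *Fcgbp* and *Zg16*.

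*Muc2* (ENSMUSG00000025515, chromosome 7, 141690340 to 141754693, plus strand, GRCm38) encodes the mucin that forms the gel itself. Untreated WT mice had 3705 and 4908 CPM, and untreated *Hsf1* null mice 5574 and 3210.5 CPM. Treated WT mice had 2515 and 4490.2 CPM, and treated *Hsf1* null mice 10878 and 7245 CPM. The treated *Hsf1* null mice were thus the highest of all, while the treated WT mice overlapped the untreated ones. The log2 fold change from day 0 to day 15 was -0.30 in WT mice, with a 95% interval of -1.30 to 0.71, and 1.04 in *Hsf1* null mice (standard error 0.45, adjusted p = 0.143 in edgeR's quasi-likelihood test). DESeq2 gave 1.05 in *Hsf1* null mice with an adjusted p of 0.0297, and over all alternatives the adjusted p for this change was between 0.0297 and 0.557. For treated WT against treated *Hsf1* null mice, *Muc2* differed by -1.37 on the log2 scale (standard error 0.46) and did not pass the edgeR test (adjusted p = 0.116, and between 0.0052 and 0.423 over all alternatives).

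*Fcgbp* (ENSMUSG00000047730, chromosome 7, 28071236 to 28120862, plus strand) encodes a large mucus protein whose repeated domains resemble those of MUC2. Its level before treatment was 2658 and 3554 CPM in WT mice and 2881 and 1860.0 CPM in *Hsf1* null mice. After treatment the WT mice had 1021 and 850.1 CPM and the *Hsf1* null mice 6059 and 2164 CPM. Both treated WT mice were below every other mouse, and the treated *Hsf1* null mice differed from each other by 2.80-fold, more than any other pair for this gene. In WT mice the change from day 0 to day 15 was -1.73 on the log2 scale (standard error 0.49, adjusted p = 0.0572 in edgeR), just short of the threshold. Against treated *Hsf1* null mice, *Fcgbp* was lower in treated WT mice by -2.14 (standard error 0.50, adjusted p = 0.0495 in edgeR). That difference rests on the whole set of mice. Without *Hsf1* null day 15 replicate 1, the mouse with the highest level, it was -1.22 with an adjusted p of 0.275 in edgeR, and leaving out any of the other mice except *Hsf1* null day 15 replicate 2 raised the adjusted p to between 0.0546 and 0.247. Over all alternatives the adjusted p was between 2.1e-05 and 0.275. Of its 50-base words, 6.42% were shared with other genes, among them *9530053A07Rik*, so a part of its reads could have been counted there.

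*Zg16* (ENSMUSG00000049350, chromosome 7, 127050156 to 127087328, minus strand) encodes a small lectin of the mucus that binds Gram-positive bacteria. In untreated colon, the values were 6465 and 11019 CPM for WT and 10843 and 9138 CPM for *Hsf1* null mice. In treated colon, they were 1379 and 1503 CPM for WT and 14789.7 and 5512 CPM for *Hsf1* null mice. The treated WT mice lay close together and far below all others, and the treated *Hsf1* null mice lay on both sides of the untreated range. *Zg16* was lower in WT mice at day 15 than at day 0 by -2.60 on the log2 scale (standard error 0.54, adjusted p = 0.0228 in edgeR) and lower in WT than in *Hsf1* null mice at day 15 by -2.82 (standard error 0.54, adjusted p = 0.0307 in edgeR). Over all alternatives the 2 log2 fold changes were between -2.94 and -2.15 and between -3.36 and -1.94, and their adjusted p-values between 3.1e-08 and 0.132 and between 1.5e-09 and 0.173. The change in WT mice did not pass the edgeR test without WT day 0 replicate 2 (adjusted p = 0.119), WT day 15 replicate 1 (0.0815) or WT day 15 replicate 2 (0.132). The difference between the treated genotypes was -1.94 without *Hsf1* null day 15 replicate 1 (adjusted p = 0.173 in edgeR), and it did not pass without either treated WT mouse (0.0923 and 0.159) or either untreated *Hsf1* null mouse (0.0704 in both fits). In *Hsf1* null mice the change was 0.02, with a 95% interval of -1.10 to 1.15. The noncoding genes *Gm22747* and *Gm44939* overlap *Zg16* on the other strand, and whether strand was used in counting is not given in the sources used here.

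*Tff3* (ENSMUSG00000024029, chromosome 17, 31125306 to 31129646, minus strand) encodes trefoil factor 3, a peptide that promotes repair of the epithelium. The WT mice had 2197 and 3227 CPM before and 791 and 770.1 CPM after treatment. The *Hsf1* null mice had 3731 and 2908 CPM before and 3149.8 and 1350.3 CPM after treatment. The treated WT mice had nearly equal levels below all others, and 1 of the treated *Hsf1* null mice lay below the untreated range. *Tff3* was lower in WT mice at day 15 than at day 0 by -1.80 on the log2 scale (standard error 0.44, adjusted p = 0.0361 in edgeR), with adjusted p-values between 1.0e-04 and 0.198 over all alternatives. That change passed the edgeR test in 2 of the 8 fits that left out 1 mouse, those without *Hsf1* null day 15 replicate 1 or 2. The adjusted p in edgeR was 0.0526 and 0.198 without WT day 0 replicates 1 and 2, 0.0583 and 0.0587 without *Hsf1* null day 0 replicates 1 and 2, and 0.108 and 0.187 without WT day 15 replicates 1 and 2. Against treated *Hsf1* null mice, the log2 fold change of *Tff3* in treated WT mice was -1.53 (standard error 0.43, adjusted p = 0.0772 in edgeR, and between 0.0017 and 0.429 over all alternatives), and it ranged from -2.01 to -0.80 when single mice were left out, with -0.80 without *Hsf1* null day 15 replicate 1.

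*Spink4* (ENSMUSG00000028415, chromosome 4, 40920052 to 40931395, plus strand) encodes a secreted peptide of the Kazal type of protease inhibitors. Levels in WT colon were 1212 and 1762 CPM without and 1242 and 959.7 CPM with treatment. Levels in *Hsf1* null colon were 1925 and 2029.6 CPM without and 1843 and 2597 CPM with treatment. The WT mice were below the *Hsf1* null mice on both days, and within each genotype the days overlapped. The log2 fold change between treated WT and treated *Hsf1* null mice was -1.01 (standard error 0.34, adjusted p = 0.115 in edgeR, and 0.0168 with DESeq2), and at day 0 it was -0.41, with a 95% interval of -1.15 to 0.33. The range of the adjusted p at day 15 over all alternatives was 0.0168 to 0.460.

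*Agr2* (ENSMUSG00000020581, chromosome 12, 35992907 to 36004087, plus strand) encodes the disulfide isomerase of the endoplasmic reticulum that mucin folding depends on. Its counts corresponded to 874 and 1259 CPM in untreated WT and 1225 and 1556 CPM in untreated *Hsf1* null mice. With treatment they were 902 and 1145 CPM for WT and 722 and 1119 CPM for *Hsf1* null mice. The treated WT mice lay inside the untreated WT range, and the treated genotypes overlapped. The log2 fold change from day 0 to day 15 was -0.06 in WT mice, with a 95% interval of -0.81 to 0.69, and -0.59 in *Hsf1* null mice, with a 95% interval of -1.35 to 0.16. Changes as large as that of *Zg16* in WT mice lie outside both intervals.

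*Spdef* (ENSMUSG00000024215, chromosome 17, 27714352 to 27728955, minus strand) encodes the ETS factor that drives goblet cell maturation. The 2 untreated WT mice had 40.3 and 84.6 CPM and the 2 untreated *Hsf1* null mice 78.6 and 46.7 CPM. The corresponding treated mice had 72.6 and 72.2 CPM (WT) and 101 and 74.1 CPM (*Hsf1* null). The treated WT mice lay within the untreated range, and the treated *Hsf1* null mice lay above the treated WT mice, 1 of them only just. The log2 fold change from day 0 to day 15 was 0.24 in WT mice (95% interval -0.59 to 1.06) and 0.47 in *Hsf1* null mice (95% interval -0.35 to 1.29). Its direction was thus not settled in either genotype. A change as large as that of *Zg16* in WT mice lies outside both intervals.

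*Atoh1* (ENSMUSG00000073043, chromosome 6, 64729125 to 64731245, plus strand) encodes the basic helix-loop-helix factor without which no goblet cell forms. Before treatment, 31.9 and 54.8 CPM were measured in WT mice and 25.8 and 73.7 CPM in *Hsf1* null mice, a spread of 2.86-fold between the latter. After treatment, 10.8 and 19.2 CPM were measured in WT mice and 40.3 and 47.7 CPM in *Hsf1* null mice. The treated WT mice were the lowest of the 8 mice, and the treated *Hsf1* null mice lay between the untreated ones. The log2 fold change in WT mice was -1.51 (standard error 0.50, adjusted p = 0.0852 in edgeR), with adjusted p-values between 0.0185 and 0.367 over all alternatives, and that between treated WT and treated *Hsf1* null mice was -1.56 (standard error 0.49, adjusted p = 0.104 in edgeR).

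**Figure D2:**
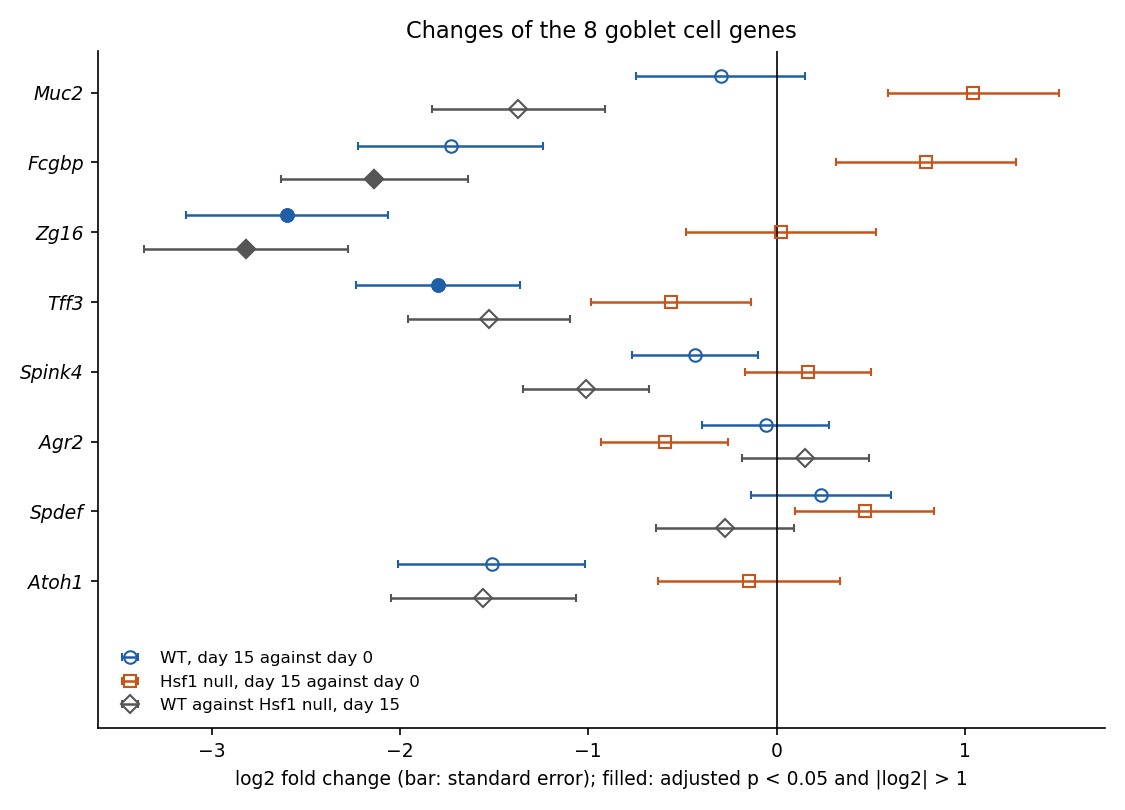
Log2 fold change (x axis) of each of the 8 genes (y axis) with its standard error as a bar, for WT mice between day 15 and day 0, *Hsf1* null mice between day 15 and day 0, and WT against *Hsf1* null mice at day 15; filled symbols passed the test, at 0.05 for the adjusted p and 1 for the size of the log2 fold change. *Zg16* and *Tff3* are filled for WT mice over time, at -2.60 and -1.80, *Fcgbp* and *Zg16* for the genotypes at day 15, at -2.14 and -2.82, and no symbol is filled for *Hsf1* null mice over time.

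A gene passed the test when its adjusted p was under 0.05 and its level changed by more than 1 on the log2 scale in either direction. The first comparison asked how treatment changed the 8 genes within WT mice. Of the 8 genes, 2 passed the edgeR test, both lower at day 15, against 7.74% of all 14371 genes tested in either direction. In 4 of the 8, *Fcgbp*, *Zg16*, *Tff3* and *Atoh1*, the treated and untreated WT mice did not overlap, against 62.5% of all genes. The median log2 fold change of the 8 genes was -0.97, and that of all genes tested was 0.00. DESeq2 placed 4 of the 8 past the threshold (*Fcgbp*, *Zg16*, *Tff3* and *Atoh1*), against 12.1% of all genes. Leaving out 1 mouse at a time gave between 0 and 3 genes, with 0 without WT day 0 replicate 2 or either treated WT mouse, 1 (*Zg16*) without WT day 0 replicate 1 or either untreated *Hsf1* null mouse, and 3 (*Fcgbp*, *Zg16* and *Tff3*) without either treated *Hsf1* null mouse.

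In *Hsf1* null mice, 0 of the 8 genes passed the edgeR test between day 0 and day 15, against 11.8% of all genes tested. *Muc2* was the 1 gene of the 8 with an unadjusted p under 0.05 in edgeR, against 32.6% of all genes, and DESeq2 placed 1 of the 8, again *Muc2*, past the threshold, against 15.3% of all genes. The median log2 fold change was 0.09 for the 8 genes and 0.05 for all genes. For *Tff3* the log2 fold change was -0.56 (standard error 0.42) and for *Fcgbp* it was 0.79 (standard error 0.48), neither of which passed the test. Without *Hsf1* null day 15 replicate 1 these values were -1.30 and -0.13, and without *Hsf1* null day 15 replicate 2 they were -0.075 and 1.35.

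Averaged over both genotypes, *Zg16* and *Tff3* were lower at day 15, by 2.44-fold and 2.26-fold, and 2 of the 8 genes thus passed the edgeR test against 16.4% of all genes. The log2 fold changes were -1.29 for *Zg16* (standard error 0.36, adjusted p = 0.0256 in edgeR) and -1.18 for *Tff3* (standard error 0.30, adjusted p = 0.0180 in edgeR), with adjusted p-values over the alternatives between 0.00013 and 0.0787 and between 0.00016 and 0.0597. Leaving out 1 mouse at a time gave between 0 and 2 genes, with 0 without WT day 0 replicate 2, WT day 15 replicate 2 or *Hsf1* null day 15 replicate 2, 1 (*Tff3*) without WT day 15 replicate 1 or *Hsf1* null day 0 replicate 2, and 1 without *Hsf1* null day 0 replicate 1, where *Zg16* (adjusted p = 0.0680) and *Tff3* (0.0516) did not pass and *Atoh1* did (0.0258, edgeR). In an exact two-sided permutation test of the 4 treated against the 4 untreated mice on log2 CPM, the smallest p of the 8 genes was 0.0857, for *Tff3*, where the design allows 0.0286.

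The comparison of the genotypes at day 15 asked whether treated WT and treated *Hsf1* null mice differed. It shares the treated WT mice with the first comparison, so the 2 sets of values are not independent. Of the 8 genes, 2 passed the edgeR test, both lower in WT mice, against 3.17% of all genes. An unadjusted p under 0.05 was found for 6 of the 8, all but *Agr2* and *Spdef*, against 23.2% of all genes, and DESeq2 placed the same 6 past the threshold, against 8.41% of all genes. In 7 of the 8, all but *Agr2*, the 2 WT and 2 *Hsf1* null mice did not overlap, against 54.8% of all genes. The median log2 fold change was -1.45 for the 8 genes and 0.03 for all genes. Leaving out 1 mouse at a time gave between 0 and 3 genes: 0 without either untreated *Hsf1* null mouse, either treated WT mouse or *Hsf1* null day 15 replicate 1, 1 (*Zg16*) without either untreated WT mouse, and 3 (*Fcgbp*, *Zg16* and *Tff3*) without *Hsf1* null day 15 replicate 2. With only the 4 treated mice in the fit, 0 genes passed, and with DESeq2's size factors in edgeR 1 did (*Zg16*).

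Untreated WT and untreated *Hsf1* null mice were compared to see whether the genotypes differed before treatment. Of the 8 genes, 0 passed the edgeR test, against 0% of all genes, 0 had an unadjusted p under 0.05, against 6.29% of all genes, and 0 passed with DESeq2. The WT and *Hsf1* null mice did not overlap in 1 of the 8, *Spink4*, against 37.1% of all genes. The median log2 fold change was -0.19 for the 8 genes and 0.01 for all genes. The widest 95% interval, that of *Zg16*, ran from -1.32 to 0.93, so differences within that range were not excluded for this gene.

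Whether treatment acted differently on the genotypes was tested by the interaction of genotype and day. Of the 8 genes, 0 passed the edgeR test, against 0.00696% of all genes, which is 1 gene. *Fcgbp* and *Zg16* were the 2 genes with an unadjusted p under 0.05, against 8.62% of all genes. The difference in log2 change was -2.53 for *Fcgbp* (standard error 0.68, unadjusted p = 0.0042, adjusted p = 0.393 in edgeR) and -2.62 for *Zg16* (standard error 0.73, unadjusted p = 0.0048, adjusted p = 0.400 in edgeR). DESeq2 placed both past the threshold, against 0.835% of all genes, with adjusted p-values of 0.0050 and 0.0022, and over all alternatives the adjusted p was between 0.0050 and 0.971 for *Fcgbp* and between 0.0022 and 0.971 for *Zg16*. Without *Hsf1* null day 15 replicate 1 the differences were -1.60 and -1.74, and without *Hsf1* null day 15 replicate 2 they were -3.09 and -3.17, for *Fcgbp* and *Zg16*. For the other 6 genes the difference was between -1.37 (*Atoh1*) and 0.54 (*Agr2*), and the median over the 8 genes was -1.29, against -0.00 over all genes. Leaving out 1 mouse at a time gave -2.29 to -0.77 for *Atoh1*, -1.72 to -0.50 for *Tff3* and 0.25 to 0.89 for *Agr2*. A call in WT mice and none in *Hsf1* null mice was thus not, by itself, a difference between the genotypes past the edgeR threshold for any of the 8 genes.

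The 8 genes did not vary together as 1 block over the 8 mice. Pearson's r of each gene's log2 CPM with the mean of the other 7, over 8 mice that share their group structure, was 0.90 for *Zg16*, 0.78 for *Tff3*, 0.77 for *Fcgbp*, 0.74 for *Spink4*, 0.71 for *Atoh1* and 0.58 for *Muc2*. For *Spdef* and *Agr2* it was 0.16 and 0.01. Of all pairs among the 8, *Zg16* and *Tff3* had the highest r, at 0.96, followed by *Zg16* and *Fcgbp* at 0.92.

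Ratios of counts within a library do not depend on how libraries are scaled, and pairs were chosen after the levels were seen. *Zg16* had 7.40 and 8.75 reads per *Agr2* read in untreated WT mice, 8.85 and 5.87 in untreated *Hsf1* null mice, 1.53 and 1.31 in treated WT mice and 20.5 and 4.92 in treated *Hsf1* null mice. For *Tff3* per *Agr2* read the values, in the same order, were 2.52 and 2.56, 3.05 and 1.87, 0.877 and 0.673, and 4.36 and 1.21. In both ratios the treated WT mice were below the other 6 mice, so *Zg16* and *Tff3* did not change in proportion to *Agr2*. Per *Muc2* read, *Tff3* had 0.593 and 0.658 reads in untreated WT mice, 0.669 and 0.906 in untreated *Hsf1* null mice, 0.314 and 0.172 in treated WT mice and 0.290 and 0.186 in treated *Hsf1* null mice. This ratio separated the treated from the untreated mice in both genotypes, and the treated genotypes overlapped. *Zg16* per *Muc2* read was 1.74 to 2.85 in the untreated mice, 0.548 and 0.335 in treated WT mice and 1.36 and 0.761 in treated *Hsf1* null mice, again with all treated mice below all untreated ones. *Fcgbp* per *Muc2* read did not separate them, at 0.517 to 0.724 in the untreated mice, 0.406 and 0.189 in treated WT mice and 0.557 and 0.299 in treated *Hsf1* null mice.

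**Figure D3:**
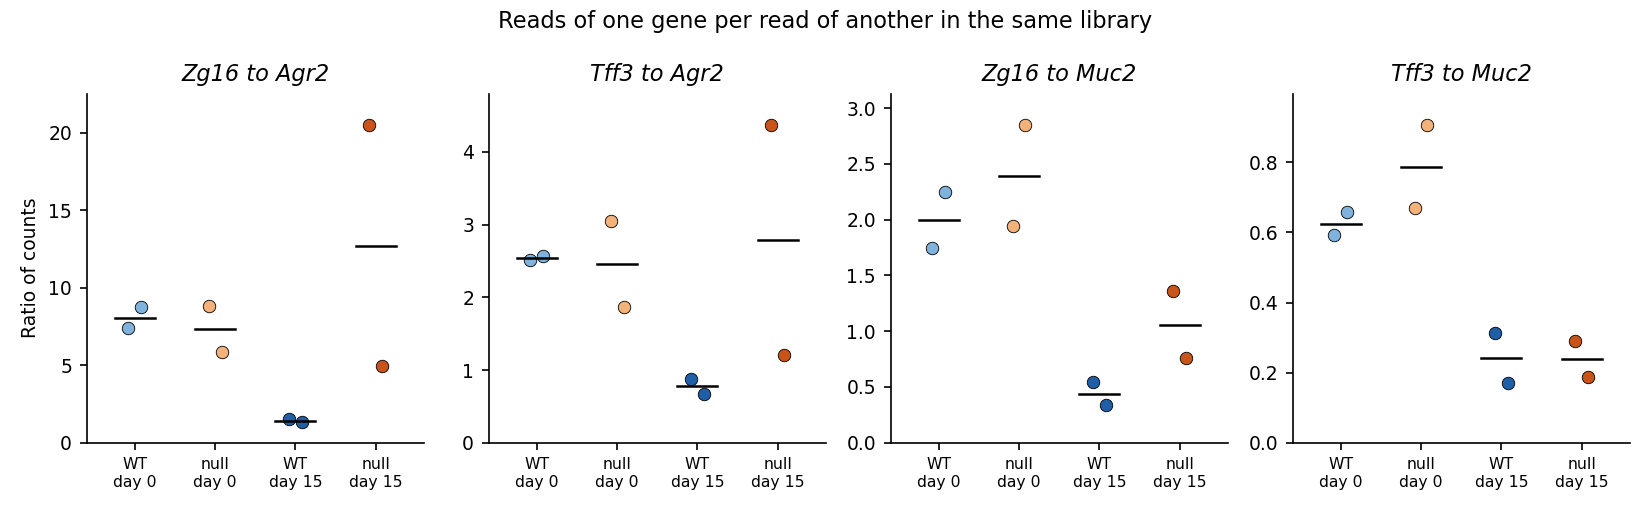
Reads of 1 gene per read of another in the same library (y axes, linear from 0) in the 4 groups (x axis), with 1 point per mouse and a line at the mean of 2 mice. *Zg16* and *Tff3* per *Agr2* read are lowest in the treated WT mice (1.31 to 1.53 and 0.673 to 0.877), whereas both per *Muc2* read are lower in all 4 treated mice than in all 4 untreated mice.

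Genes outside the 8 with known roles in goblet cells were grouped by role. Of 11 other secreted products, 5 could be analysed here (*Clca1*, *Retnlb*, *Reg4*, *Ang4* and *Klk1*), and their summed level was 715 and 738 CPM in treated WT mice and 3500 to 6195 CPM in the other 6 mice. *Clca1*, a metalloprotease that processes MUC2 in the mucus, was at 2474 and 2643 CPM in untreated and 287 and 308 CPM in treated WT mice, and at 1747 and 2773 CPM in untreated and 3082 and 1232 CPM in treated *Hsf1* null mice. Like *Zg16*, it was lowest in both treated WT mice. Within WT mice, 2 of the 5 were lower at day 15 and 0 higher, against 7.74% of all genes, *Klk1*, a kallikrein, by -3.27 (standard error 0.43, adjusted p = 0.0060 in edgeR) and *Clca1* by -3.10 (standard error 0.47, adjusted p = 0.0088 in edgeR). Against treated *Hsf1* null mice 3 of the 5 were lower in treated WT mice, against 3.17% of all genes, *Klk1* (-3.09), *Clca1* (-2.86) and *Reg4* (-2.27), a lectin of the regenerating family, with adjusted p-values in edgeR of 0.0137, 0.0210 and 0.0137. In *Hsf1* null mice over time, 0 of the 5 passed the edgeR test, 3 had an unadjusted p under 0.05 and 0 passed with DESeq2, against 11.8%, 32.6% and 15.3% of all genes. *Retnlb*, an antibacterial protein induced in inflamed colon, went the other way when both genotypes were averaged, rising by 1.96 on the log2 scale (standard error 0.65, adjusted p = 0.0453 in edgeR), and it was at 8.87 and 48.9 CPM in treated WT mice.

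Of 23 regulators of the secretory lineage and of goblet cells, 22 were tested, and their counts are to be read against the 7.74%, 11.8% and 3.17% of all genes that passed in WT mice over time, in *Hsf1* null mice over time and between the treated genotypes. In WT mice 3 were lower at day 15 and 0 higher: *Klf4* (-2.36), a factor of goblet cell differentiation, *Foxa2* (-1.60), a forkhead factor, and *Hes1* (-1.26), the Notch target that represses *Atoh1*, with adjusted p-values in edgeR of 0.0146, 0.0311 and 0.0396. In *Hsf1* null mice 3 were higher, *Gfi1* (2.60), which acts below ATOH1, *Foxa3* (1.50) and *Cdx2* (1.22). The 1 that was lower was *Xbp1* (-1.25), a factor of the unfolded protein response. *Gfi1* had only 13 and 4 reads in the untreated *Hsf1* null mice (1.07 and 1.44 CPM). It was at 6.98 and 7.62 CPM in the treated *Hsf1* null mice and at 2.84 and 7.15 CPM in the untreated WT mice. Between treated WT and treated *Hsf1* null mice, *Hes1* (-2.18), *Foxa2* (-1.68) and *Foxa3* (-1.13, named after its value was seen) were lower and *Notch2* (1.53) and *Xbp1* (1.35) higher in WT mice. *Hes1* was at 61.7 and 44.0 CPM in treated WT mice, below all others, and at 297 and 182 CPM in treated *Hsf1* null mice, above all others. *Atoh1* and the factor that represses it were thus both lowest in the treated WT mice. The median log2 fold change of the 22 genes was -0.15 in WT mice, 0.05 in *Hsf1* null mice and -0.41 between the treated genotypes.

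**Figure D4:**
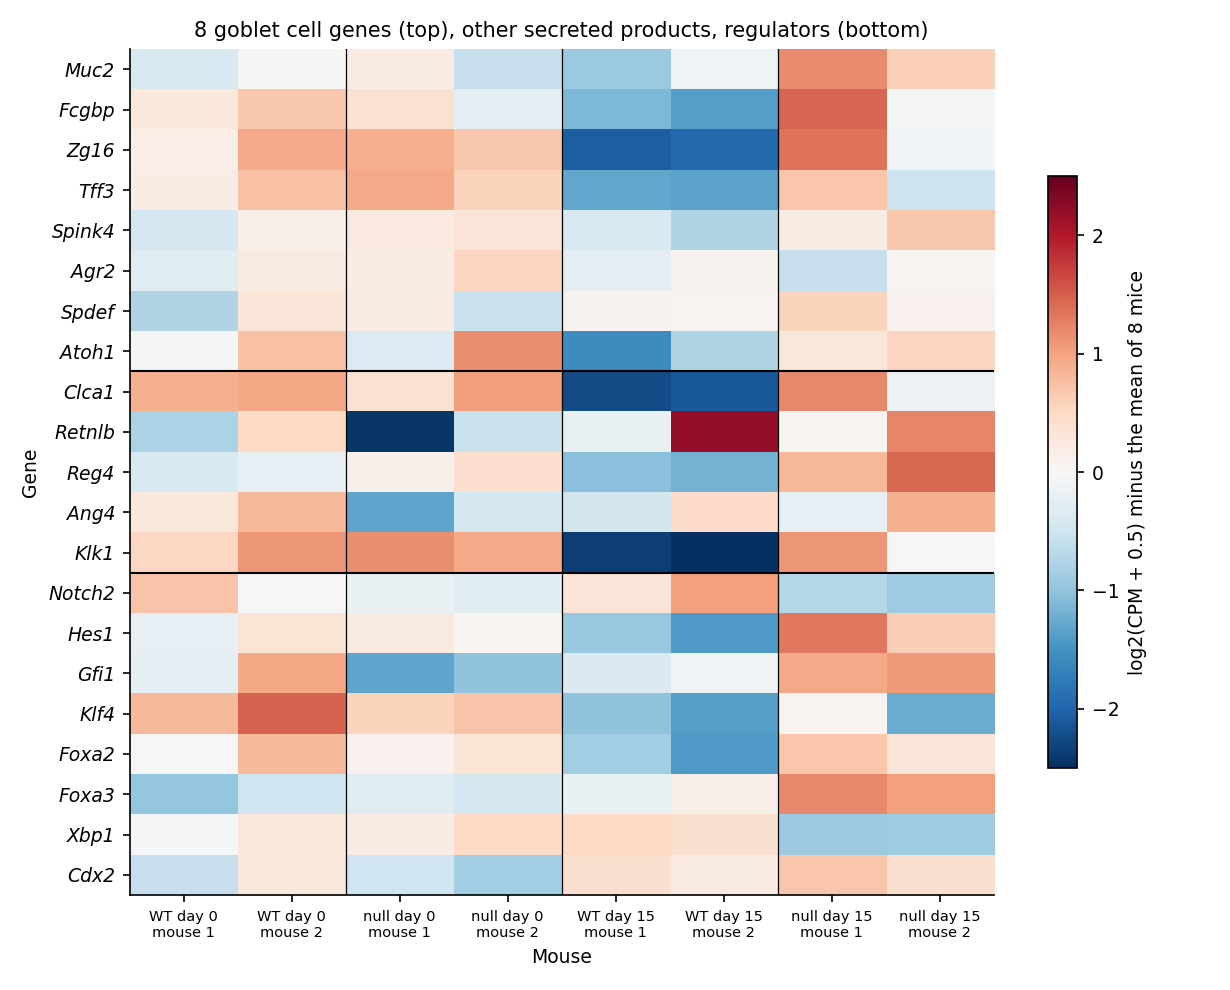
Log2(CPM + 0.5) minus the mean of 8 mice (color) for the 8 goblet cell genes, 5 other secreted products, and the regulators that passed a test (rows, in 3 blocks from the top), in each of the 8 mice (columns). The 2 treated WT mice share low values in *Zg16*, *Fcgbp*, *Tff3*, *Clca1*, *Klk1*, *Klf4*, *Foxa2* and *Hes1* and not in *Agr2*, *Spdef* or *Xbp1*.

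Enzymes that build the O-glycans of mucins moved in both directions. Of 29 tested, 2 rose and 7 fell in WT mice after treatment, 0 were higher and 5 lower in *Hsf1* null mice, and 1 was higher and 0 lower in treated WT than in treated *Hsf1* null mice, where DESeq2 gave 4 and 3. The shares of all genes in these comparisons were 7.74%, 11.8% and 3.17% in edgeR, and 8.41% in the last with DESeq2. *Fut2*, which adds the fucose of the H antigen, was at 102 and 107 CPM in untreated and 355 and 453 CPM in treated WT mice, or 1.95 more on the log2 scale (standard error 0.35, adjusted p = 0.0145 in edgeR). *St3gal1*, a sialyltransferase, was also higher in WT mice (2.11), and *Galnt7* (-1.79), which adds further GalNAc to mucin chains, and *St3gal6* (-1.78) were lower. In *Hsf1* null mice *Gcnt1* (-1.91) and *C1galt1* (-1.85), enzymes of the core structures of O-glycans, *Galnt5* (-1.53) and *Fut4* (-1.53) were among the lower ones. *Galnt2* (1.21) was the enzyme that differed between the treated genotypes. The median over the 29 was -0.08 in WT and -0.21 in *Hsf1* null mice.

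Of 9 membrane mucins, 4 could be analysed here (*Muc1*, *Muc4*, *Muc13* and *Muc20*). In the 6 comparisons 0 of them passed the edgeR test, with between 0 and 2 at an unadjusted p under 0.05 in each. The shares of all genes that passed were 7.74% in WT mice over time, 11.8% in *Hsf1* null mice and 16.4% in their mean. They were 3.17% between the treated genotypes, 0% at day 0 and 0.00696% in the difference. The 2 at an unadjusted p under 0.05 were between the treated genotypes, against 23.2% of all genes. DESeq2 placed 1, *Muc4*, past the threshold there, as higher in treated WT than in treated *Hsf1* null mice, against 8.41% of all genes. *Muc13*, the most abundant of them, was at 2876 and 1992 CPM in treated WT mice and 3607 and 3180.2 CPM in treated *Hsf1* null mice. Of 14 genes of granule release, 1 was higher and 2 lower at day 15 in each genotype, against 7.74% of all genes in WT and 11.8% in *Hsf1* null mice, with *Unc13d*, which primes granules for fusion, higher (1.62 in WT and 1.56 in *Hsf1* null mice) and *Rab27b*, a GTPase that docks them, lower (-1.51 and -1.69) in both, and with *Syt7* (-1.29) lower in WT and *Snap23* (-1.55) in *Hsf1* null mice. Between the treated genotypes 0 of the 14 passed the edgeR test, 6 had an unadjusted p under 0.05 and 1 passed with DESeq2, against 3.17%, 23.2% and 8.41% of all genes.

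Markers of the epithelium as a whole, of muscle and of leukocytes were summed in the same mice. The epithelium markers summed to 10848 to 15966 CPM in untreated WT, 12130 to 18364 in untreated *Hsf1* null, 16229 to 17350.0 in treated WT and 21889 to 25016 CPM in treated *Hsf1* null mice. In WT mice over time 0 of the 12 passed the edgeR test, 1 had an unadjusted p under 0.05 and 0 passed with DESeq2. There edgeR and DESeq2 called 7.74% and 12.1% of all genes, and the markers' median log2 fold change was 0.12. In *Hsf1* null mice 0 passed the edgeR test, 5 had an unadjusted p under 0.05 and DESeq2 called 4, all higher. Over all genes these shares were 11.8%, 32.6% and 15.3%. In these mice 10 of the 12 markers had positive changes, with a median of 0.31. In the mean of genotypes 1 marker, *Cldn4*, was called as higher, against 16.4% of all genes. Between treated WT and treated *Hsf1* null mice 0 of 12 passed in edgeR, none of them had an unadjusted p under 0.05, 0 passed with DESeq2, against 3.17%, 23.2% and 8.41% of all genes, and their median was -0.44. Scaled to these markers instead of the whole library, *Zg16* had a log2 fold change of -2.74 in WT mice over time (adjusted p = 0.0013 in edgeR) and -2.37 between the treated genotypes (adjusted p = 0.0064 in edgeR), and *Fcgbp* had -1.89 and -1.68 (adjusted p = 0.0101 and 0.0348 in edgeR). *Tff3* had -1.95 in WT mice over time (adjusted p = 0.0053 in edgeR) and -1.09 between the treated genotypes, which did not pass (adjusted p = 0.0989 in edgeR).

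Smooth muscle markers, 8 of 8 counted in every mouse, summed to 2123 to 3678 CPM in treated WT mice and to 5311 to 9808 CPM in the other 6 mice, and 5 of the 8 were lower in WT mice at day 15, against 7.74% of all genes, led by *Actg2* (-2.28). Leukocyte markers, of which 7 of 8 were counted and *Ly6g* was not analysed here, summed to 389 to 824 CPM in treated WT mice and to 93.1 to 267 CPM in the other 6 mice, and *Cd3e*, a T cell gene, was higher at day 15 in both genotypes (2.49 in WT and 2.75 in *Hsf1* null mice). In treated WT mice smooth muscle markers were thus lowest, as were *Zg16*, *Tff3* and *Fcgbp*, while leukocyte markers were highest. The part of either group of markers in the result was not tested.

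**Figure D5:**
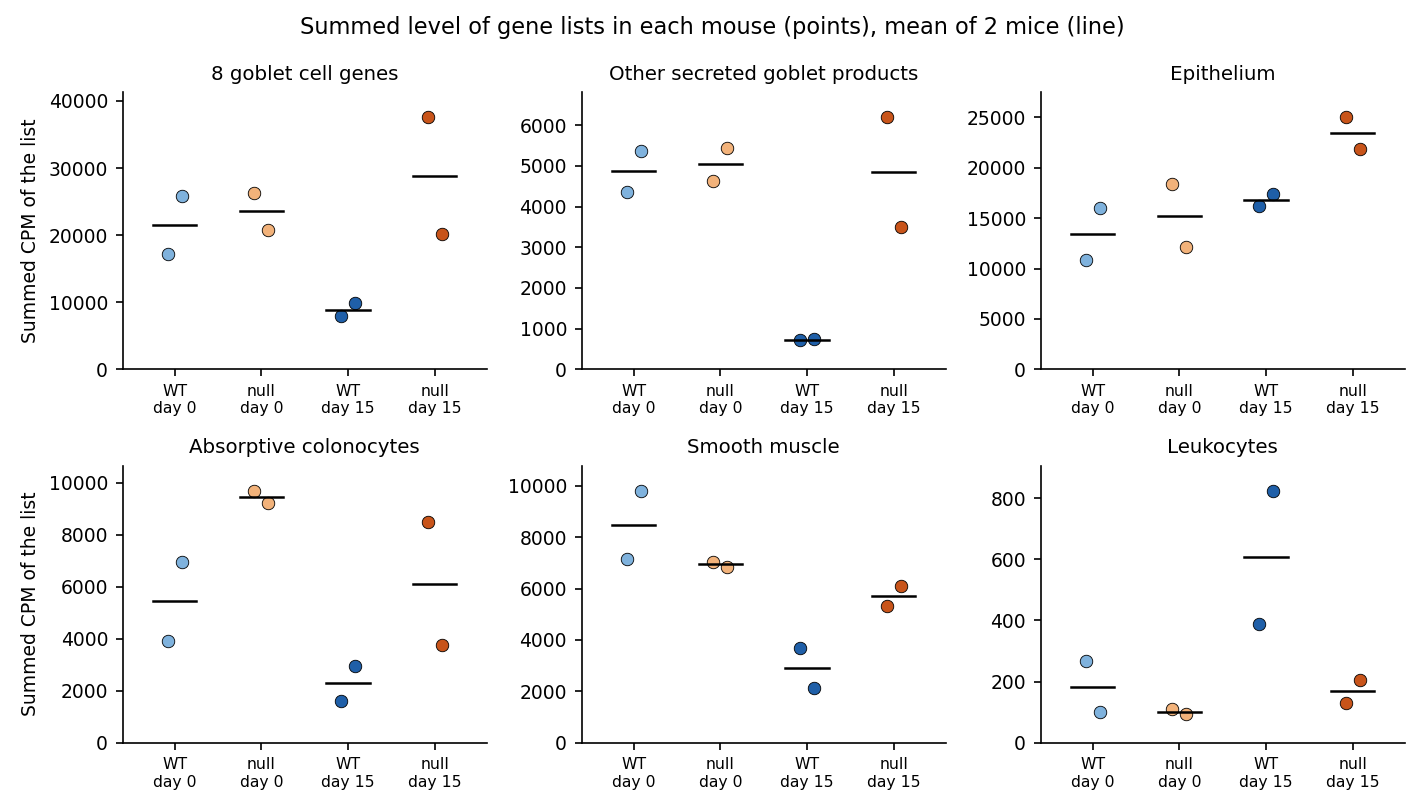
Summed CPM of the genes of 6 lists (y axes, linear from 0) in the 4 groups (x axis), with 1 point per mouse and a line at the mean of 2 mice. In the treated WT mice the 8 goblet cell genes (7934 to 9810) and the other secreted products (715 to 738) are lowest, the epithelium markers are within the range of the other mice, smooth muscle markers are lowest and leukocyte markers highest.

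Outside all these lists, the 5 genes with the highest Pearson's r with the mean z-score of the 8 goblet cell genes over the 8 mice were *Tmem246* (0.980), *Sike1* (0.971), *Tm6sf2* (0.965), *Daam1* (0.964) and *Epb4.1l4b* (0.959). *Tmem246* was at 34.3 and 31.3 CPM in treated WT mice and at 54.6 to 102 CPM in the other 6 mice. Because these genes were picked for their r, a low level in the treated WT mice follows in part from that choice. With 8 mice in 4 groups and 14371 genes, an r of this size is a description and was not tested.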

How the data were processed

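Libraries made from poly(A) RNA of 8 distal colons, 1 per mouse, were aligned by the authors to mm10 with STAR, and the deposited table gives raw counts per gene symbol. The counting program, its annotation and its use of strand are not given in the sources used here. A table of the same counts divided by DESeq2 size factors was not used.

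Genes with a mean of more than 5 counts per mouse after scaling by size factors were kept. A quasi-likelihood model of the 4 groups was fitted to all 8 mice in edgeR 4.0.16 (R 4.3.3) with TMM scaling, and comparisons were tested with Benjamini-Hochberg adjustment over 14371 genes. The fit left 4 residual degrees of freedom. Calls needed both an adjusted p under 0.05 and a change of more than 1 on the log2 scale. The 8 genes and all gene lists were chosen with earlier results of these data known, and no count over a list was tested against other lists. Of the other lists (other secreted products, regulators, O-glycosylation enzymes, membrane mucins, granule release, epithelium, absorptive, enteroendocrine, stem and cycling and Paneth cells, smooth muscle, fibroblasts and leukocytes), at most the 4 called genes with the largest change per comparison are named, besides those said to be chosen otherwise, and the result of a further list is not reported here. Alternatives were DESeq2 1.42.0, its size factors in edgeR, other filters on low counts, no fold threshold, a replicate block, counts thinned to the smallest library, fits of the compared groups alone, scaling to epithelium markers, and leaving out each mouse.

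Each library came from 1 mouse, and intervals rest on the spread between the 2 mice of a group, estimated from all groups together. Gene positions and exon lengths are from GENCODE M21 on GRCm38, and promoter sequences from RefSeq on GRCm38.p6. Replicate numbers do not pair animals in the labels, and same-numbered mice of different groups deviated with correlations between -0.29 and 0.15.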

Additional observations from a re-analysis of the deposited data

How the results depend on the processing

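Of 800 values of the 8 genes under the alternatives, 711 kept their direction and their side of the threshold, 37 lost the call, 20 gained one and 32 changed sign. Every call rests on 2 mice per group, each of the 8 genes had 124 reads or more in each mouse, and the cause of a changed call was not tested.

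DESeq2 in place of edgeR called 4 of the 8 genes in WT mice over time, 1 in *Hsf1* null mice, 6 between the treated genotypes and 2 in the difference between genotypes, and over all genes it called 1737 rather than 1112 in WT mice, 2203 rather than 1692 in *Hsf1* null mice, 1208 rather than 455 between the treated genotypes, 18 rather than 0 at day 0 and 120 rather than 1 in the difference. With DESeq2's size factors in edgeR 1 gene was called between the treated genotypes, and in a fit of the 4 treated mice alone 0 were. Thinning moved *Zg16* in *Hsf1* null mice to -0.0089 on the log2 scale. It also called *Fcgbp* in WT mice over time (-1.78, adjusted p = 0.0471 in edgeR). A fit of the WT mice alone called *Fcgbp* there as well (-1.73, adjusted p = 0.0424 in edgeR). After scaling to epithelium markers the median of all genes, between -0.0034 and 0.052 before, was -0.20 in WT mice, -0.47 in *Hsf1* null mice, -0.35 in their mean, 0.42 between the treated genotypes, 0.079 at day 0 and 0.30 in the difference. Under it the median of the 8 genes was -0.46 in *Hsf1* null mice, -0.75 in the mean of genotypes, -1.03 between the treated genotypes and -0.85 in the difference, and 1 gene, *Tff3*, was called in *Hsf1* null mice, against 14.5% of all genes. Changes of sign under it were *Zg16* (-0.56), *Spink4* (-0.36) and *Spdef* (-0.018) in *Hsf1* null mice, *Spdef* between the treated genotypes (0.13), *Muc2* (0.052) and *Spdef* (0.0098) at day 0, and *Spdef* in the difference (0.12).

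A replicate block, for which the labels give no pairing of animals, called 1 gene between the treated genotypes (*Atoh1*, adjusted p = 0.0457 in edgeR), left *Zg16* (0.0563) and *Fcgbp* (0.0660) uncalled there and *Tff3* (0.0537) uncalled in WT mice over time, where it called *Atoh1* (0.0358), and gave *Zg16* -0.012 and *Atoh1* 0.0050 in *Hsf1* null mice. Over all genes this block called 6.04% in WT mice over time and 2.39% between the treated genotypes. Another block, with the 2 untreated WT mice exchanged, was added after seeing the data because their numbers correlated negatively with those of treated mice. It called 4 genes in WT mice over time and 4 between the treated genotypes. The share of all genes called under it was not calculated, so whether these counts exceed that share is not known.

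Leaving out 1 mouse at a time gave between 0 and 3 called genes in WT mice over time, 0 and 2 in the mean of genotypes, and 0 and 3 between the treated genotypes. The median of the 8 genes ranged from -1.28 to -0.60 in WT mice, from -0.64 to 0.15 at day 0 and from -1.52 to -0.92 in the difference. Genes whose sign changed were *Spdef* (-0.22 to 0.86), *Agr2* (-0.30 to 0.24) and *Muc2* (-0.78 to 0.061) in WT mice, *Zg16* (-0.85 to 0.57), *Atoh1* (-0.74 to 0.77), *Fcgbp* (-0.13 to 1.35) and *Spink4* (-0.10 to 0.40) in *Hsf1* null mice, and *Spink4* (-0.27 to 0.027) in the mean. Between treated genotypes it was *Agr2* (-0.14 to 0.50), at day 0 *Muc2* (-0.37 to 0.42), *Zg16* (-0.65 to 0.14), *Spdef* (-0.67 to 0.42) and *Atoh1* (-0.78 to 0.73), and in the difference *Spdef* (-0.69 to 0.39). Where a group was left with 1 mouse, that mouse was taken to vary like the others.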

Other observations

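Other cell types were counted in the same mice as the 8 goblet cell genes, and their counts stand against the 7.74%, 11.8% and 3.17% of all genes called in WT mice over time, in *Hsf1* null mice over time and between the treated genotypes. Of 10 genes of absorptive colonocytes, 2 fell in WT mice after treatment, the chloride exchanger *Slc26a3* (-3.63 on the log2 scale, adjusted p = 0.0065 in edgeR) and the water channel *Aqp8* (-3.39, adjusted p = 0.0151 in edgeR). In *Hsf1* null mice *Slc26a3* (-3.27) and *Car1* (-1.88), a carbonic anhydrase, fell and *Guca2b* (1.32), which encodes uroguanylin, rose. *Aqp8* was also lower in treated WT than in treated *Hsf1* null mice (-3.93, adjusted p = 0.0210 in edgeR). The summed level of the 10 genes was 1603 to 2958 CPM in treated WT and 3771 to 9688 CPM in the other 6 mice, and *Slc26a3* and *Aqp8* were each lowest in the treated WT mice.

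Of 8 enteroendocrine genes, *Sct*, which encodes secretin, rose in WT mice (2.33, adjusted p = 0.0461 in edgeR). In *Hsf1* null mice 0 passed the edgeR test, 1 had an unadjusted p under 0.05 and 0 passed with DESeq2. Over all genes these shares were 11.8%, 32.6% and 15.3%. Of 8 genes of stem and cycling cells tested, the cell cycle gene *Birc5* rose in WT (1.74) and in *Hsf1* null mice (2.35). *Top2a* rose in *Hsf1* null mice (1.42), and the stem cell gene *Lgr5* fell in WT mice (-2.54). *Lgr5* was also lower at day 15 in the mean of genotypes (-2.19, adjusted p = 0.0057 in edgeR). Its counts were low, with 58 and 9 reads in the untreated and 10 and 7 in the treated WT mice. In *Hsf1* null mice it was at 7.39 and 6.11 CPM before and 1.24 and 2.54 CPM after treatment. Of 6 fibroblast genes, *Dcn*, which encodes decorin, fell in *Hsf1* null mice (-2.18), where 4 of the 6 had negative and 2 positive changes. Between the treated genotypes all 6 were higher in WT mice, with a median of 1.09. There 0 passed the edgeR test, 2 had an unadjusted p under 0.05 and DESeq2 called 2, against 3.17%, 23.2% and 8.41% of all genes. The 2 Paneth cell genes analysed here, *Lyz1* and *Itln1*, did not pass the threshold in any comparison with edgeR or with DESeq2. Between the treated genotypes 1 had an unadjusted p under 0.05, against 23.2% of all genes, where DESeq2 called 8.41% of them.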
